A study of Sus scrofa with 48 samples.

Results

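The livers described here came from 24 pigs fed a high-fat high-fiber diet, 12 from a line with a low residual feed intake (RFI) and 12 from a line with a high RFI. RFI is the feed that an animal eats beyond what its growth and fatness would predict, so that the low RFI line is the more feed-efficient one. The 24 arrays were chosen by their titles, HF_RFIneg for the low RFI line and HF_RFIpl for the high RFI line, out of 48 arrays in all. The other 24 arrays, from pigs of both lines fed a low-fat low-fiber diet, are used only to show whether a line effect was also seen in other animals. All pigs were purebred Large White castrated males, the lines had been selected over 8 generations, and each pig was fed its diet from 74 days of age until slaughter. Line is therefore the only labelled difference between the 2 groups, and it covers every allele and trait that differs between the lines, not feed efficiency alone. Pigs were killed 2 hours after a last meal, and the relatedness of the pigs within a line was not given in the sources used here.

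The liver takes up nutrients from the intestine, stores and releases glucose, makes and exports lipids, breaks down amino acids, and secretes most plasma proteins. It also holds resident macrophages and lymphocytes. A diet rich in fat brings more fatty acids to hepatocytes, which activate them as acyl-CoA esters before they are oxidized, stored or exported. The arrays, 1 per pig, were of a custom porcine Agilent design with probes of 60 bases and were read in 1 colour. Values are log2 intensities relative to the median of the array, so that 0 is the median tested probe, and the log2 fold-change (FC) is the mean of the low RFI pigs less that of the high RFI pigs. The level of one probe cannot be compared with that of another, and in bulk tissue fewer cells of a type and less RNA per cell cannot be told apart.

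The brightness of the arrays overlapped between the lines. The median intensity ranged from 56.2 to 108.5 in low RFI pigs and from 67.5 to 126.4 in high RFI pigs, in the arbitrary units of the scanner, and the log2 medians differed by -0.0596 (2-sided permutation test with 100000 resamples, P = 0.617). The share of probes well above background was 71.6% ± 2.29 and 72.6% ± 2.62 (SD, n = 12 each), respectively (P = 0.343, same test). Albumin (ALB), a defining product of hepatocytes, lay between 10.58 and 11.20 in low RFI pigs and between 10.36 and 11.20 in high RFI pigs. Each of the 6 slides held 2 arrays of each line, and each of the 2 scan days held 6, so neither was confounded with line. A probe was tested when it was well above background on at least 12 of the 24 arrays, which left 43209 probes, 22981 of them with a symbol for 10949 genes.

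With the high-fat high-fiber diet, 279 probes differed between the lines at an adjusted P (Benjamini-Hochberg, limma) under 0.05. Of the tested probes, 140 (0.324%) were over-expressed and 139 (0.322%) under-expressed in low RFI pigs. The cut-offs of the study, P under 0.01 and FC over 1.1, were met by 774 (1.79%) and 810 (1.87%) probes, respectively. Among the 279 called probes the median FC was 1.6, and 30 of the higher and 46 of the lower ones had an FC over 2. With the 6 pigs per line of a single scan day, 15 and 8 probes were called, and without the filter on dim probes 168 were. The 279 probes named 96 genes, while 153 of them carried no gene symbol. When each gene was represented by its probe of highest intensity, 67 genes (0.612%) were called, and the cut-offs were met by 202 genes (1.84%) over-expressed and 182 (1.66%) under-expressed in low RFI pigs.

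Few probes separated the lines completely. For 6 of the 43209 tested probes (0.0139%), the 12 pigs of one line did not overlap with the 12 of the other, and 5 of the 6 were lower in low RFI pigs. The sequences of 5 of these probes are shown, because 3 of them have no gene symbol and can be identified by sequence alone.
DLGAP3: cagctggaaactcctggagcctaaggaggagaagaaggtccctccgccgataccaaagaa
FAM103A1: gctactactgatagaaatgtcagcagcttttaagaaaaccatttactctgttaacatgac
unnamed probe A: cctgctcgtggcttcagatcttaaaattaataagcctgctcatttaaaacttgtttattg
unnamed probe B: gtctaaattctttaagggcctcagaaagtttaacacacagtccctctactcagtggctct
unnamed probe C: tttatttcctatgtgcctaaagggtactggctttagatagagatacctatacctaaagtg

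PLEC codes for plectin, a large linker between the filaments of the cytoskeleton. Its values ranged from -1.71 to -0.72 (median -1.25) in low RFI pigs and from -0.59 to 0.77 (median 0.24) in high RFI pigs. The mean was -1.27 ± 0.36 (SD, n = 12) against 0.21 ± 0.43 (SD, n = 12), a log2 FC of -1.48 (SE 0.15, adjusted P = 1.61e-05). All low RFI pigs were therefore below all high RFI pigs, with a gap of 0.12. With the low-fat low-fiber diet, in other pigs, the log2 FC was again -1.48 (SE 0.11, adjusted P = 5.98e-08). The gene was measured by this probe alone.

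DLGAP3, a scaffold protein of synapses, ranged from -2.29 to -1.53 (median -2.04) in low RFI pigs and from -1.47 to -0.42 (median -0.81) in high RFI pigs (log2 FC -1.08, SE 0.11, adjusted P = 1.61e-05). FAM103A1, an activating subunit of the enzyme that methylates the cap of mRNA, ranged from -2.34 to -1.35 (median -1.70) and from -1.27 to -0.44 (median -1.09), respectively (log2 FC -0.75, SE 0.12, adjusted P = 0.00177). Both genes were under-expressed in every pig of the low RFI line relative to every pig of the high RFI line, by narrow gaps of 0.06 and 0.08. The sizes were smaller with the normexp background correction, which left log2 FC of -0.58 for DLGAP3 and -0.43 for FAM103A1. With the low-fat low-fiber diet, FAM103A1 was also called (log2 FC -0.80, adjusted P = 0.00576), and DLGAP3 had a log2 FC of -0.74 (adjusted P = 0.0717).

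Among the unnamed probes, probe A ranged from -4.82 to -2.85 (median -3.46) in low RFI pigs and from -2.52 to -1.12 (median -1.75) in high RFI pigs, a log2 FC of -1.70 (SE 0.19, adjusted P = 3.44e-05) with the widest gap of the 6 probes, 0.34. Probe B was dim in low RFI pigs, where it was well above background in 4 of 12 pigs and ranged from -4.81 to -3.39 (median -4.17), while it ranged from -3.18 to -0.96 (median -2.25) in high RFI pigs (log2 FC -1.75, SE 0.21, adjusted P = 7.14e-05). Probe C was the one that was higher in low RFI pigs, from -0.35 to 0.07 (median -0.18) against -1.07 to -0.46 (median -0.62), a log2 FC of 0.51 (SE 0.07, adjusted P = 0.000467). Its separation was not seen in the pigs fed the low-fat low-fiber diet, where the log2 FC was 0.00 (SE 0.10, adjusted P = 0.997). The unadjusted limma P of the difference between the diets was 0.000118 for probe C and 0.00316 for probe B, and both had an adjusted P of 1 over all tested probes.

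**Figure D1:**
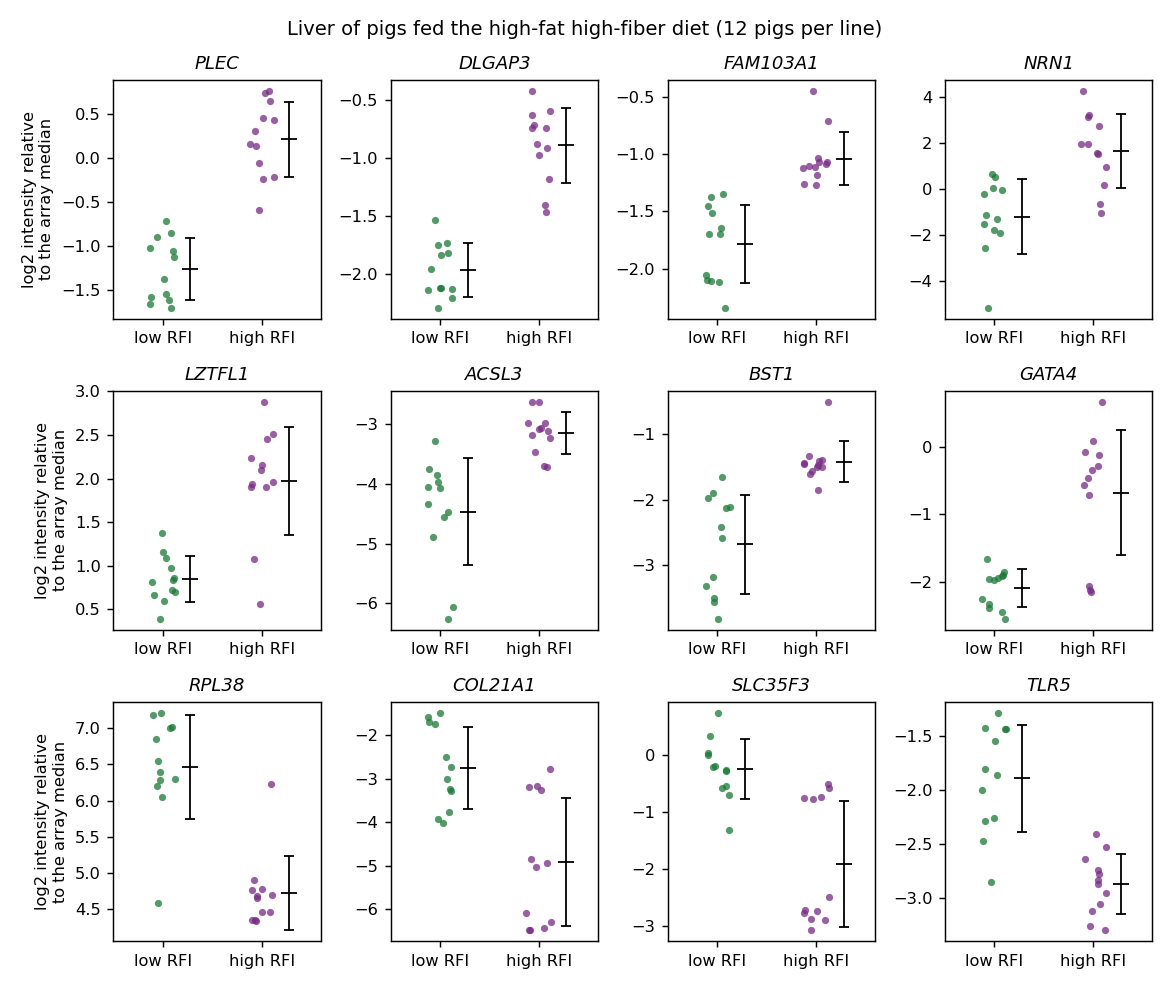
Log2 intensity relative to the array median (y axis) of 12 genes in pigs fed the high-fat high-fiber diet, each by its called probe of largest change, 1 point per pig, with low RFI in green and high RFI in purple (12 pigs per line). Bars give the mean and SD. PLEC, DLGAP3 and FAM103A1 do not overlap between lines, while RPL38 has 1 pig of each line on the other line's side and COL21A1, GATA4 and SLC35F3 are split within high RFI pigs.

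The largest decrease in low RFI pigs was that of NRN1, which codes for neuritin, a membrane-anchored protein first known from neurite growth. Its values spread widely, from -5.18 to 0.62 (median -1.24) in low RFI pigs and from -1.05 to 4.26 (median 1.75) in high RFI pigs. The log2 FC was -2.85 (SE 0.62, adjusted P = 0.0278), or 7.23-fold, and 9 of 12 high RFI pigs were above all low RFI pigs. With the ANOVA the adjusted P was 0.0524. Its second probe gave -2.68 (SE 0.55, adjusted P = 0.0195), and with the low-fat low-fiber diet the log2 FC was -3.36 (adjusted P = 0.00241).

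ACSL3 fell on all of its probes. The gene codes for a long-chain acyl-CoA synthetase, an enzyme that activates fatty acids and is found on lipid droplets. By its probe of highest intensity, ACSL3 ranged from 1.93 to 3.59 (median 2.86) in low RFI pigs and from 2.79 to 4.50 (median 4.16) in high RFI pigs, a log2 FC of -1.05 (SE 0.21, adjusted P = 0.0147). The other 3 probes had log2 FC between -1.31 and -0.81, all with an adjusted P under 0.05. The most negative one was dim, being well above background in 5 of 12 low RFI pigs, and gave -0.26 (adjusted P = 0.284) with the normexp correction. In the pigs fed the low-fat low-fiber diet the log2 FC of its probe of highest intensity was -0.46 (P = 0.0257, adjusted P = 0.43). The unadjusted limma P of its difference between the diets was 0.048, and this difference did not pass the adjusted threshold.

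BST1 and PARVG, which are known from blood cells, were under-expressed in low RFI pigs. BST1, a cell surface ADP-ribosyl cyclase, ranged from -3.82 to -1.65 (median -2.50) in low RFI pigs and from -1.85 to -0.50 (median -1.46) in high RFI pigs, and 11 pigs of each line lay outside the range of the other line (log2 FC -1.26, SE 0.22, adjusted P = 0.00677). PARVG, an adaptor protein of focal adhesions, ranged from -3.97 to -2.19 (median -3.30) and from -2.75 to -1.57 (median -1.83), respectively (log2 FC -1.29, SE 0.17, adjusted P = 0.000391). These values were near the lower end of the scale, and normexp gave -0.56 for BST1 and -0.47 for PARVG. With the low-fat low-fiber diet, PARVG was called (log2 FC -1.32, adjusted P = 0.000396), while BST1 had a log2 FC of -0.83 (adjusted P = 0.147). Macrophage and lymphocyte markers are described with the cell type lists.

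ARSG, a lysosomal sulfatase, LZTFL1, a regulator of protein traffic into cilia, and PIGY, which takes part in the synthesis of glycosylphosphatidylinositol anchors, completed the named genes that fell. ARSG ranged from -4.78 to -2.41 (median -3.01) in low RFI pigs and from -2.56 to -1.46 (median -2.02) in high RFI pigs (log2 FC -1.16, SE 0.23, adjusted P = 0.0135, and -0.38 with normexp). LZTFL1 ranged from 0.39 to 1.37 (median 0.83) and from 0.56 to 2.88 (median 2.03), respectively (log2 FC -1.12, SE 0.19, adjusted P = 0.00341). PIGY ranged from 0.75 to 3.16 (median 1.71) and from 1.77 to 3.35 (median 2.54), a log2 FC of -0.89 (SE 0.21, adjusted P = 0.0453). The lines overlapped for each of these genes, although 10 of 12 high RFI pigs were above all low RFI pigs for ARSG and for LZTFL1. The second probe of LZTFL1 had a log2 FC of -0.13 (P = 0.147), so its fall rested on 1 of 2 probes. The call of PIGY was lost with scan day as a block (adjusted P = 0.0535), with the ANOVA (0.0784) and without the filter on dim probes (0.0864).

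Among the 12 largest increases in low RFI pigs, COL21A1, SPARCL1 and LAMC3 code for proteins of the extracellular matrix. COL21A1, a fibril-associated collagen, ranged from -4.0 to -1.48 (median -2.87) in low RFI pigs and from -6.48 to -2.77 (median -4.99) in high RFI pigs, where it was well above background in 4 of 12 pigs (log2 FC 2.17, SE 0.47, adjusted P = 0.0295). This size depended on the background correction, since normexp with its offset gave 0.54 and the median intensity without subtraction 0.82. Of its other 2 probes one gave 2.59 (adjusted P = 0.062) and the other 0.07 (P = 0.393). SPARCL1, a matricellular protein, ranged from -1.85 to -0.41 (median -1.05) against -4.67 to -1.58 (median -2.40), a log2 FC of 1.22 (SE 0.26, adjusted P = 0.0224), and 8 of its 9 other probes were also higher in low RFI pigs at an unadjusted P under 0.05. LAMC3, a laminin chain, ranged from 2.14 to 4.38 (median 2.67) against 0.69 to 2.44 (median 1.80), a log2 FC of 1.25 (SE 0.26, adjusted P = 0.0195). The call of COL21A1 was lost with the ANOVA (adjusted P = 0.0552) and that of LAMC3 with 1 model of all 48 arrays (adjusted P = 0.0507), and LAMC3 had a log2 FC of 1.75 and 0.76 within scan days 1 and 2. Of other matrix genes, COL1A1 had a log2 FC of 0.01 and COL1A2 one of 0.12, with 0.18 (P = 0.048) by another of its probes. Of 15 stellate cell and fibroblast markers, 0 met the cut-offs. At the shares over all genes (1.84% higher and 1.66% lower) this is no result about the list, and the matrix as a whole was not tested. Of the 3 matrix genes among the largest increases, COL21A1 was also called with the low-fat low-fiber diet (log2 FC 1.57, adjusted P = 0.0305). SPARCL1 had a log2 FC of 0.66 (adjusted P = 0.0931) there and LAMC3 one of 0.63 (adjusted P = 0.68).

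TLR5, GFRA2 and ALPK3 also rose. TLR5, the receptor of bacterial flagellin, ranged from -2.85 to -1.29 (median -1.83) in low RFI pigs and from -3.29 to -2.41 (median -2.85) in high RFI pigs, and 10 of 12 low RFI pigs were above all others (log2 FC 0.98, SE 0.16, adjusted P = 0.00246). The corresponding ranges of GFRA2, a co-receptor of neurturin, were -2.62 to -0.81 (median -1.37) and -3.52 to -1.83 (median -2.42), a log2 FC of 1.04 (SE 0.21, adjusted P = 0.0195). Its second probe had a log2 FC of 0.07 (P = 0.64). ALPK3, an alpha-kinase known from heart muscle, had a log2 FC of 1.08 (SE 0.23, adjusted P = 0.022). TLR5, GFRA2 and ALPK3 were called with both diets, with log2 FC of 0.95, 1.41 and 0.93 in the low-fat low-fiber pigs. The normexp values were 0.44 for TLR5, 0.55 for GFRA2 and 0.71 for ALPK3, and ALPK3 had a log2 FC of 1.72 and 0.44 within scan days 1 and 2.

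The remaining genes of the 12 largest increases were of diverse roles. SLC35F3, a solute carrier, ranged from -1.32 to 0.73 (median -0.24) in low RFI pigs and from -3.06 to -0.52 (median -2.60) in high RFI pigs, where 7 of 12 pigs were below all low RFI pigs (log2 FC 1.66, SE 0.33, adjusted P = 0.0163). Its size differed between scan days, with a log2 FC of 2.69 on day 1 and 0.62 (P = 0.0895) on day 2. ALG1, which adds the first mannose to the precursor of N-glycans, had a log2 FC of 1.04 (SE 0.22, adjusted P = 0.0224, and 0.29 with normexp). C4H8orf37 had a log2 FC of 0.95 (SE 0.21, adjusted P = 0.035), and MFSD6L one of 0.92 (SE 0.17, adjusted P = 0.00917). The call of C4H8orf37 was lost with slide as a block (adjusted P = 0.0554), with the ANOVA (0.0591) and without the filter on dim probes (0.0569). RPL38, a ribosomal protein, and TRAF6, a ubiquitin ligase of Toll-like receptor and CD40 signalling, are described next, because their probes did not read alike.

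Probes of the same gene often disagreed, and so the sequences of some pairs are shown. The probes carrying letters are in order of P, from A, and capitals mark the longest stretch of at least 20 bases that a probe shares with another probe of its gene, on either strand.
GATA4 probe A: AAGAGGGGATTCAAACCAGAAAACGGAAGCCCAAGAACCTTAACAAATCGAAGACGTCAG
GATA4 probe C: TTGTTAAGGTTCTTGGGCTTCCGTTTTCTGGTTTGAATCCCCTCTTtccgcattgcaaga
SLC35F3 probe A: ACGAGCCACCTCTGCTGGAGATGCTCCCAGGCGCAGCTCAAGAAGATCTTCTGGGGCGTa
SLC35F3 probe B: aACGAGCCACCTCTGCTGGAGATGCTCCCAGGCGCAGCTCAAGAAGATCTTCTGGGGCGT
TRAF6 probe A: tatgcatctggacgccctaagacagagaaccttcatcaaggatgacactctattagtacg
TRAF6 probe B: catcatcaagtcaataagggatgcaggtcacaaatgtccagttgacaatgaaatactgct

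GATA4 is a transcription factor of liver, heart and gut development. Its values by probe A ranged from -2.54 to -1.65 (median -1.96) in low RFI pigs and from -2.14 to 0.66 (median -0.40) in high RFI pigs, in which 9 pigs were above all low RFI pigs and 3 were within their range (log2 FC -1.41, SE 0.26, adjusted P = 0.00979). Probe B has the same 60 bases as probe A and gave -1.30 (adjusted P = 0.015), which makes it a repeat of the measurement on the same arrays. Probe C is on the opposite strand over a shared stretch of 46 bases and gave -0.21 (P = 0.134). In the pigs fed the low-fat low-fiber diet, probe A had a log2 FC of -0.63 (P = 0.0306, adjusted P = 0.459), and the unadjusted limma P of the difference between the diets was 0.0486 (adjusted P = 1).

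For SLC35F3, probes A and B share 59 bases and gave 1.66 and 1.65, while probe C, of another sequence, gave -0.07 (P = 0.441). TRAF6 ranged from 1.81 to 2.84 (median 2.53) in low RFI pigs and from 0.34 to 2.50 (median 1.16) in high RFI pigs by probe A (log2 FC 1.16, SE 0.24, adjusted P = 0.0183), but probe B, which shares no such stretch with it, gave 0.17 (P = 0.0805). RPL38 ranged from 4.58 to 7.21 (median 6.47) and from 4.34 to 6.24 (median 4.67), respectively, with a log2 FC of 1.75 (SE 0.24, adjusted P = 0.000467) by its first probe, and its second probe gave -0.02 (P = 0.745). With these genes the size of the change belonged to a probe and was not shared by every probe of the gene. No probe of them moved the opposite way at an unadjusted P under 0.05. The mean over all probes, which includes the called ones, stayed higher in low RFI pigs. Its log2 FC was 0.86 for RPL38, 1.08 for SLC35F3 and 0.67 for TRAF6, each with an adjusted P under 0.05. Ribosomal protein genes have many near-identical processed copies in mammalian genomes, and which copy a probe reads was not tested.

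Over all 96 named genes, 34 were measured by a single probe and 62 by several. In 41 of these 62 genes at least 1 other probe moved the same way at an unadjusted P under 0.05, in 26 every other probe did, and in 2 an other probe moved the opposite way. Of the other probes that share at least 20 bases with the called probe, 23 of 27 (85.2%) moved the same way at that P, compared with 71 of 137 (51.8%) of those that do not. Among the 153 called probes without a symbol, 13 share at least 20 bases with a probe that has one, such as MFSD6L, PARVG, ALPK3, SPARCL1 and RPL6 (examples picked with their values known).

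**Figure D2:**
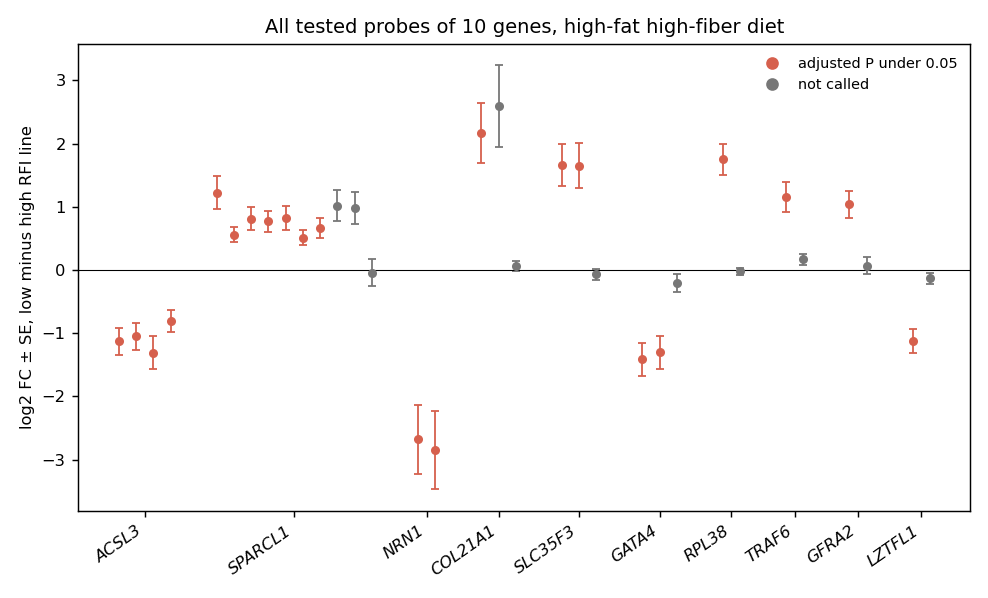
Log2 FC (low minus high RFI line, y axis) with its standard error for every tested probe of 10 genes, in order of P within a gene, with the high-fat high-fiber diet. Probes with an adjusted P under 0.05 are red. All 4 probes of ACSL3 and both of NRN1 are called, while 1 of 2 is for RPL38, TRAF6, GFRA2 and LZTFL1.

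Among antioxidant and conjugating enzymes, the genes that met the cut-offs were lower in low RFI pigs. MGST2, a microsomal glutathione transferase, ranged from 4.35 to 5.73 (median 5.34) in low RFI pigs and from 5.36 to 6.46 (median 6.16) in high RFI pigs (log2 FC -0.84, SE 0.15, adjusted P = 0.00822). It was the only one of the 18 measured glutathione, glucuronosyl and sulfo transferases past the cut-offs. With the low-fat low-fiber diet the log2 FC of MGST2 was -0.35 (adjusted P = 0.584). The unadjusted limma P of its difference between the diets was 0.0432, and this difference did not pass the adjusted threshold. Of 29 antioxidant enzymes, 0 met the cut-offs as over-expressed and 3 as under-expressed, where 1.84% and 1.66% of all 10949 genes did. GPX3, the glutathione peroxidase of plasma, ranged from 5.0 to 6.67 (median 5.76) and from 5.65 to 7.49 (median 6.68), respectively (log2 FC -0.74, SE 0.19, adjusted P = 0.0762). The peroxiredoxin PRDX1 had a log2 FC of -0.47 (SE 0.12, adjusted P = 0.0787) and SOD2, the superoxide dismutase of mitochondria, one of -0.42 (SE 0.12, adjusted P = 0.112). These 3 genes did not pass the adjusted threshold by their probe of highest intensity, although 1 other probe of GPX3 (log2 FC -0.83, adjusted P = 0.0467) and 2 of SOD2 (log2 FC -0.60 and -0.62, adjusted P = 0.0407 and 0.0439) did. The median log2 FC of the list was -0.09, compared with 0.01 over all 10949 genes, and 20 of 29 genes were lower.

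For cholesterol synthesis and uptake, 0 of 22 measured genes met the cut-offs, which at the shares over all genes (1.84% higher and 1.66% lower) is no result about the list, and 20 of 22 were lower in low RFI pigs, with a median log2 FC of -0.23. HMGCS1, the cytosolic synthase of the pathway, ranged from -3.97 to -0.33 (median -1.45) in low RFI pigs and from -3.27 to 0.11 (median -0.83) in high RFI pigs, a log2 FC of -0.51 (SE 0.37, adjusted P = 0.758). The genes were measured in the same pigs, so the number that lie on one side is not a count of independent genes. For fatty acid synthesis, 0 of 16 genes met the cut-offs and the median was -0.14. In the pigs fed the low-fat low-fiber diet the medians of these lists were 0.07 and 0.09, and the difference between the diets was not tested for a list.

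Fatty acid oxidation in mitochondria had 0 of 23 genes past the cut-offs and a median log2 FC of -0.04. This and the following counts are read against 1.84% of all genes higher and 1.66% lower. In the peroxisome, 1 of 17 met them, the acyl-CoA oxidase ACOX3 (log2 FC 0.25, SE 0.08, adjusted P = 0.202). Besides ACSL3, the elongation enzyme HACD3 met the cut-offs among 11 genes of polyunsaturated fatty acid synthesis and acyl-CoA synthesis (log2 FC 0.17, SE 0.06, adjusted P = 0.22). Bile acid synthesis and transport had 0 of 17. Apolipoproteins, HDL enzymes and paraoxonases had 2 of 23, both over-expressed. One was LCAT, which esterifies cholesterol in HDL (log2 FC 0.24, SE 0.08, adjusted P = 0.259). The other was PON3, an HDL-bound lactonase, which ranged from 3.92 to 8.72 (median 7.89) in low RFI pigs and from 3.28 to 7.95 (median 5.94) in high RFI pigs (log2 FC 1.85, SE 0.64, adjusted P = 0.251). In the low RFI line 1 pig was far below the other 11, and the high RFI line was split, which gave this large change a wide error, while with the low-fat low-fiber diet the log2 FC was 3.04 (adjusted P = 0.00141). The neighbouring paraoxonase genes PON1 and PON2 met the cut-offs by their best probe, with log2 FC of 1.89 (P = 0.00864) and -0.25 (P = 0.00983).

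By its probe of highest intensity, IGFBP1 had a large change that its other probes did not share in size. It codes for a binding protein of insulin-like growth factors that the liver secretes and that insulin represses. Its values ranged from 1.5 to 5.56 (median 3.37) in low RFI pigs and from 2.73 to 7.71 (median 5.72) in high RFI pigs, and 7 of 12 high RFI pigs were above all low RFI pigs. The log2 FC was -2.05 (SE 0.52, P = 0.000608), or 4.14-fold, with an adjusted P of 0.0672 that misses the threshold. Its other 2 probes gave -0.47 (P = 0.00155) and -0.32 (P = 0.0236), and the mean over the 3 probes was -0.95. With the low-fat low-fiber diet the log2 FC had the opposite sign, 0.85 (SE 0.87, adjusted P = 0.865), and the unadjusted limma P of the difference between the diets was 0.00783 (adjusted P = 1). Besides it, 1 of the 20 measured genes of the growth hormone and insulin-like growth factor axis met the cut-offs, STAT5A (log2 FC 0.21, SE 0.07, adjusted P = 0.235). Of all genes, 1.84% met them as higher and 1.66% as lower.

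Glucose metabolism had 1 gene past the cut-offs of 25, the pyruvate dehydrogenase kinase PDK1 (log2 FC 0.36, SE 0.12, adjusted P = 0.196). Over all genes, 1.84% met the cut-offs as higher and 1.66% as lower. Amino acid breakdown and the urea cycle had 1 of 30, IVD, which dehydrogenates isovaleryl-CoA in the breakdown of leucine. IVD ranged from 3.19 to 4.51 (median 3.78) in low RFI pigs and from 2.20 to 3.80 (median 3.41) in high RFI pigs (log2 FC 0.52, SE 0.16, adjusted P = 0.176), and both of its other probes were also higher at an unadjusted P under 0.05. In the low-fat low-fiber pigs the log2 FC of IVD was -0.02. The unadjusted limma P of the difference was 0.0133, and this difference did not pass the adjusted threshold. Cytochrome P450 enzymes had 3 of 30. CYP4F2, which hydroxylates fatty acids, had a log2 FC of 0.89 (SE 0.27, adjusted P = 0.149), the drug-metabolizing CYP1A2 one of -0.68 (SE 0.22, adjusted P = 0.201), and CYP3A29 one of -0.47 (SE 0.13, adjusted P = 0.115). The direction of CYP1A2 depended on the probe, since its other probe was called with the opposite sign (log2 FC 0.74, SE 0.16, adjusted P = 0.0295) and the mean over both was 0.03.

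In the machinery of protein synthesis and energy production the counts past the cut-offs are read against 1.84% of all genes higher and 1.66% lower. By the probe of highest intensity, cytosolic ribosomal proteins had 1 of 75 genes past the cut-offs, RPL14 (log2 FC 0.25, SE 0.07, adjusted P = 0.108). The median was 0.05 and 56 of 75 were higher, where 52.7% of all genes were. Besides the called probe of RPL38, probes of RPL6 were called, such as those with log2 FC of 0.29 (adjusted P = 0.0135) and 0.35 (adjusted P = 0.0155). Other probes of RPL6 were not, such as one with 0.19 (adjusted P = 0.101). Mitochondrial ribosomal proteins had 2 of 65, MRPL9 (log2 FC 0.28, SE 0.07, adjusted P = 0.0531) and MRPS16 (log2 FC -0.46, SE 0.14, adjusted P = 0.17), and a median of 0.02. The other probe of MRPS16 gave 0.07 (P = 0.402), while that of MRPL9 gave 0.30 (P = 0.00239). The respiratory chain and ATP synthase had 0 of 76, also with a median of 0.02. In protein breakdown, 1 of 40 proteasome subunits met the cut-offs, the immunoproteasome subunit PSMB10 (log2 FC -0.38, SE 0.11, adjusted P = 0.136). Ubiquitin-conjugating enzymes and USP deubiquitinases had 3 of 58 over-expressed and 1 under-expressed, the latter being UBE2Q2 (log2 FC -0.34, SE 0.12, adjusted P = 0.232).

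USP33, a deubiquitinase, ranged from 1.71 to 2.21 (median 1.89) in low RFI pigs and from 1.07 to 1.88 (median 1.53) in high RFI pigs (log2 FC 0.41, SE 0.09, adjusted P = 0.0363). UBE2V1, a partner of the enzyme that builds ubiquitin chains in TRAF6 signalling, ranged from 2.67 to 2.97 (median 2.88) and from 2.36 to 2.80 (median 2.64), a log2 FC of 0.26 (SE 0.06, adjusted P = 0.0409). Both rose by small amounts, and both calls were lost with normexp (adjusted P = 0.0662 and 0.0671) and without the filter on dim probes (0.0663 and 0.0931). That of USP33 was also lost with slide as a block (adjusted P = 0.0614), with 1 model of all 48 arrays (0.068) and without background subtraction (0.052). USP30 had a log2 FC of 0.23 (SE 0.07, adjusted P = 0.212), and the mean over its 3 probes was 0.04. Among endoplasmic reticulum stress genes 1 of 23 met the cut-offs, the transcription factor ATF3 (log2 FC -1.04, SE 0.27, adjusted P = 0.0758, and -0.35 with normexp), and among heat shock proteins 0 of 20, with 18 of 20 lower and a median of -0.10. The shares over all genes were 1.84% higher and 1.66% lower.

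In CD40, TRAF and NF-kappaB signalling, 1 of 29 genes met the cut-offs as over-expressed, the first-described probe of TRAF6, and 1 as under-expressed, TRAF3 (log2 FC -0.25, SE 0.08, adjusted P = 0.171). The corresponding shares over all genes were 1.84% and 1.66%. Interferon-stimulated genes had 1 over-expressed and 2 under-expressed of 42. TRIM25, a ubiquitin ligase of antiviral sensing, ranged from 3.68 to 4.37 (median 3.98) in low RFI pigs and from 2.83 to 4.01 (median 3.50) in high RFI pigs (log2 FC 0.54, SE 0.12, adjusted P = 0.0295, or 0.0875 with 1 model of all 48 arrays). The transcription factor IRF1 and the nucleotide hydrolase SAMHD1 had log2 FC of -0.38 (SE 0.11, adjusted P = 0.145) and -0.32 (SE 0.09, adjusted P = 0.118). Other probes of IRF1 gave -0.37 (P = 0.00352) and 0.10 (P = 0.561). The list as a whole had a median of 0.10, with 28 of 42 genes higher, compared with -0.29 in the low-fat low-fiber pigs, where 0 genes met the cut-offs as over-expressed and 1 as under-expressed.

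In MHC class I antigen presentation, 0 genes of 25 were over-expressed and 2 under-expressed at the cut-offs, PSMB10 and HLA-B, named after the human gene. Of all genes, 1.84% were over-expressed and 1.66% under-expressed at the cut-offs. HLA-B ranged from 2.90 to 6.01 (median 4.87) in low RFI pigs and from 3.81 to 6.83 (median 5.61) in high RFI pigs (log2 FC -0.93, SE 0.33, adjusted P = 0.269). Class I genes of the pig are near-identical copies and vary between animals, so which copy the probe reads is uncertain. Class II antigen presentation had 0 of 17. Chemokines had 1 over-expressed and 2 under-expressed of 25, namely XCL1, a chemokine of lymphocytes and NK cells (log2 FC 0.54, SE 0.13, adjusted P = 0.0447), CCL14 (log2 FC -0.59, SE 0.16, adjusted P = 0.0906) and CCL28 (log2 FC -0.69, SE 0.21, adjusted P = 0.172). Other probes of CCL14 gave -0.28 (P = 0.0805) and -0.09 (P = 0.271), and those of CCL28 gave -0.92 (P = 0.00298) and -0.55 (P = 0.109). Of these chemokines, only XCL1 was called, and its other 2 probes were higher at an unadjusted P under 0.05. This call was lost with 1 model of all 48 arrays (adjusted P = 0.071), with the ANOVA (0.066), without the filter on dim probes (0.0709) and with the mean over its probes (0.0569). The interleukin 10 and JAK-STAT chain had 0 of 17 by the probe of highest intensity, by which IL10 had a log2 FC of -0.36 (P = 0.0189). Other probes of IL10 met the cut-offs, with -0.40 (P = 0.00416, adjusted P = 0.183) and -0.38 (P = 0.00523, adjusted P = 0.204). So did another probe of the receptor gene IL10RB, with -0.51 (P = 0.00391, adjusted P = 0.176), while IL10RA had -0.07 (P = 0.591). Complement and coagulation had 0 of 37, and acute phase proteins 1 of 24, the fibrinogen chain FGG (log2 FC 0.20, SE 0.06, adjusted P = 0.203).

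Of 111 genes in 9 lists of cell type markers, 3 met the cut-offs, a share near that of all genes (1.84% higher and 1.66% lower). Hepatocyte markers had 0 of 8, and the mean of the list ranged from 8.68 to 9.01 in low RFI pigs and from 8.50 to 8.98 in high RFI pigs. Among Kupffer cell and macrophage markers 1 of 18 met the cut-offs, the receptor EMR1 (log2 FC -0.34, SE 0.10, adjusted P = 0.149), with list means from 2.55 to 3.27 and from 2.63 to 3.13, respectively. T and NK cell markers had 1 of 21, the granzyme GZMH (log2 FC -0.51, SE 0.17, adjusted P = 0.202), with 17 of 21 genes lower, a median of -0.08 and list means from -0.72 to 0.15 and from -0.18 to 0.28. B and plasma cell markers had 1 of 9, the coactivator POU2AF1 (log2 FC 0.31, SE 0.11, adjusted P = 0.238), with list means from -0.85 to -0.11 and from -0.75 to -0.24. Neutrophil (9 genes), stellate cell and fibroblast (15), endothelial (13), cholangiocyte (10) and erythroid (8) markers had 0, with medians of -0.13, 0.03, 0.08, -0.18 and 0.03. The list means of both lines overlapped for all 9 cell types, and their part in the results on immune genes was not tested.

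**Figure D3:**
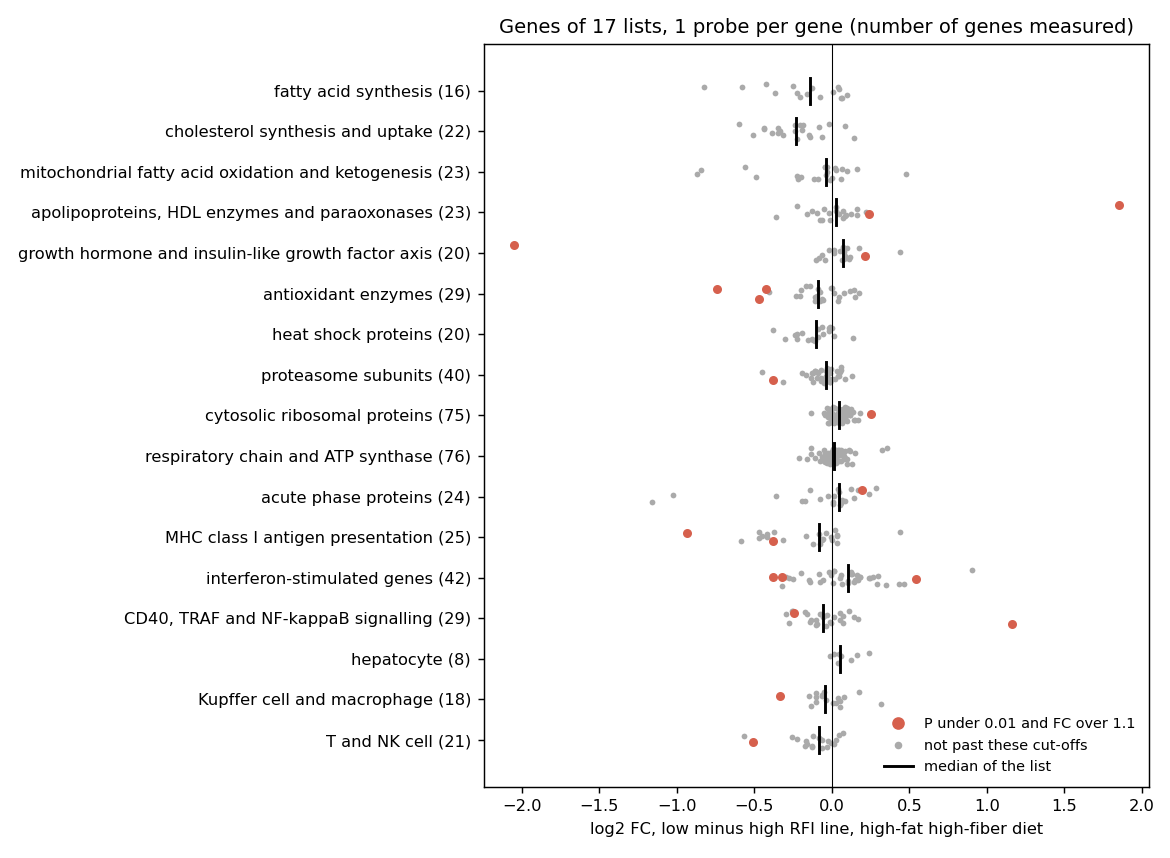
Log2 FC (low minus high RFI line, x axis) of the genes of 17 lists with the high-fat high-fiber diet, each gene by its probe of highest intensity, with the number of genes measured in brackets. Red points met P under 0.01 and FC over 1.1, grey points did not, and black bars are medians. IGFBP1, at -2.05, and PON3, at 1.85, are the widest points, while the medians of the lists lie between -0.23 and 0.10.

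Lists of genes that the study had reported for these lines were also counted, and since the study chose them on these samples their direction is not independent evidence. The shares over all genes were 1.84% over-expressed and 1.66% under-expressed at the cut-offs. Of 16 genes of macromolecule catabolic processes, 5 were over-expressed and 1 under-expressed, the latter being the mitochondrial protease YME1L1 (log2 FC -0.23, SE 0.08, adjusted P = 0.235). In intracellular transport, 2 of 17 were over-expressed, the nucleoporin NUP43 (log2 FC 0.54, SE 0.17, adjusted P = 0.192) and the import protein TOMM5 (log2 FC 0.45, SE 0.12, adjusted P = 0.0715), and 3 were under-expressed. PIKFYVE, a kinase of endosomal lipids, ranged from 1.18 to 2.01 (median 1.52) in low RFI pigs and from 1.69 to 2.46 (median 2.14) in high RFI pigs (log2 FC -0.55, SE 0.10, adjusted P = 0.011). MLX, a partner of the carbohydrate-responsive factor MLXIPL, ranged from 0.10 to 1.27 (median 0.60) and from 0.83 to 1.89 (median 1.09), a log2 FC of -0.59 (SE 0.13, adjusted P = 0.0383). Each of PIKFYVE and MLX had 1 other probe, which had an unadjusted P of 0.103 and 0.944, respectively, and the means over the probes were -0.35 and -0.30. The call of MLX was lost with that mean (adjusted P = 0.146), with the ANOVA (0.0588) and without the filter on dim probes (0.0612). The immune response list had 2 over-expressed and 3 under-expressed of 11, response to oxidative stress 0 and 2 of 5, reverse cholesterol transport 1 and 0 of 5, and linoleic acid metabolism 0 and 1 of 3. Glycoprotein metabolism and defense response had 0 genes past the cut-offs by the probe of highest intensity, with 9 of 9 genes higher (median log2 FC 0.22) and 13 of 14 lower (median -0.18), respectively. The study had sorted its liver lists by direction in these livers. Glycoprotein metabolism and reverse cholesterol transport were listed as over-expressed in low RFI pigs, and defense response and linoleic acid metabolism as under-expressed. The side on which these lists lie was therefore set by their choice. In the cell cycle and DNA replication list, not one of the study's, 1 of 23 met the cut-offs, ORC4 (log2 FC 0.26, SE 0.07, adjusted P = 0.0699, with a mean over its probes of 0.08).

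The pigs fed the low-fat low-fiber diet shared no animal with the 24 described here, and 280 probes (0.648%) differed between the lines in them. Of the 279 probes called with the high-fat high-fiber diet, 276 had the same direction with the other diet, and 217 (77.8%) also had an unadjusted P under 0.05 there, compared with 9.15% of all tested probes in either direction. The 74 probes called in both comparisons were 26.5% of the calls of one and 26.4% of the other, all in the same direction. The median size of the log2 FC among the 279 was 0.67 with the diet on which they were chosen and 0.52, in the same direction, with the other diet. A smaller size in the second set follows from choosing probes on the first, so the sizes alone do not show a difference between the diets.

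**Figure D4:**
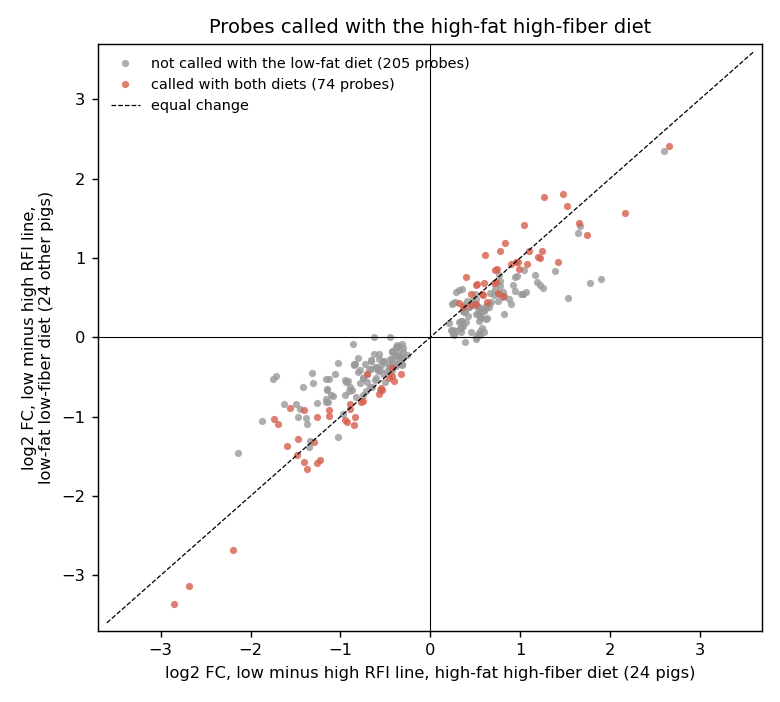
Log2 FC (low minus high RFI line) of the 279 probes called with the high-fat high-fiber diet (x axis) against the log2 FC of the same probes in other pigs fed the low-fat low-fiber diet (y axis). Red marks the 74 probes called with both diets, and the broken line is an equal change. Nearly all points, 276, lie in the quadrants of equal direction.

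A line effect that differed between the diets was found for 0 of the 43209 probes at an adjusted P under 0.05, with limma on all 48 arrays and with an ANOVA without moderated variances. An unadjusted P under 0.05 was found for 1013 probes (2.34%). Of the 279 called probes, 29 were among these. Probes chosen for a large change with the high-fat high-fiber diet enter this difference with that change. The choice therefore favours a small unadjusted P for them. The smallest P of a named gene was that of PDLIM1, a cytoskeletal adaptor protein, which ranged from 3.82 to 5.42 (median 4.47) in low RFI pigs and from 4.49 to 5.69 (median 4.94) in high RFI pigs. Its log2 FC was -0.48 (SE 0.15, P = 0.00454) with the high-fat high-fiber diet and 0.34 (P = 0.00454) with the other, and the P of the difference was 9.05e-05 (adjusted P = 1). All 4 probes of PDLIM1 had these opposite signs. TMC7 followed with -0.55 and 0.56 (P = 0.000506), then PRDM8 with -0.33 and 0.34 (P = 0.00116), CD1D with 0.03 and -0.46 (P = 0.00127) and ABCB1 with -0.21 and 0.43 (P = 0.00196). None of these differences passed the adjusted threshold.

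**Figure D5:**
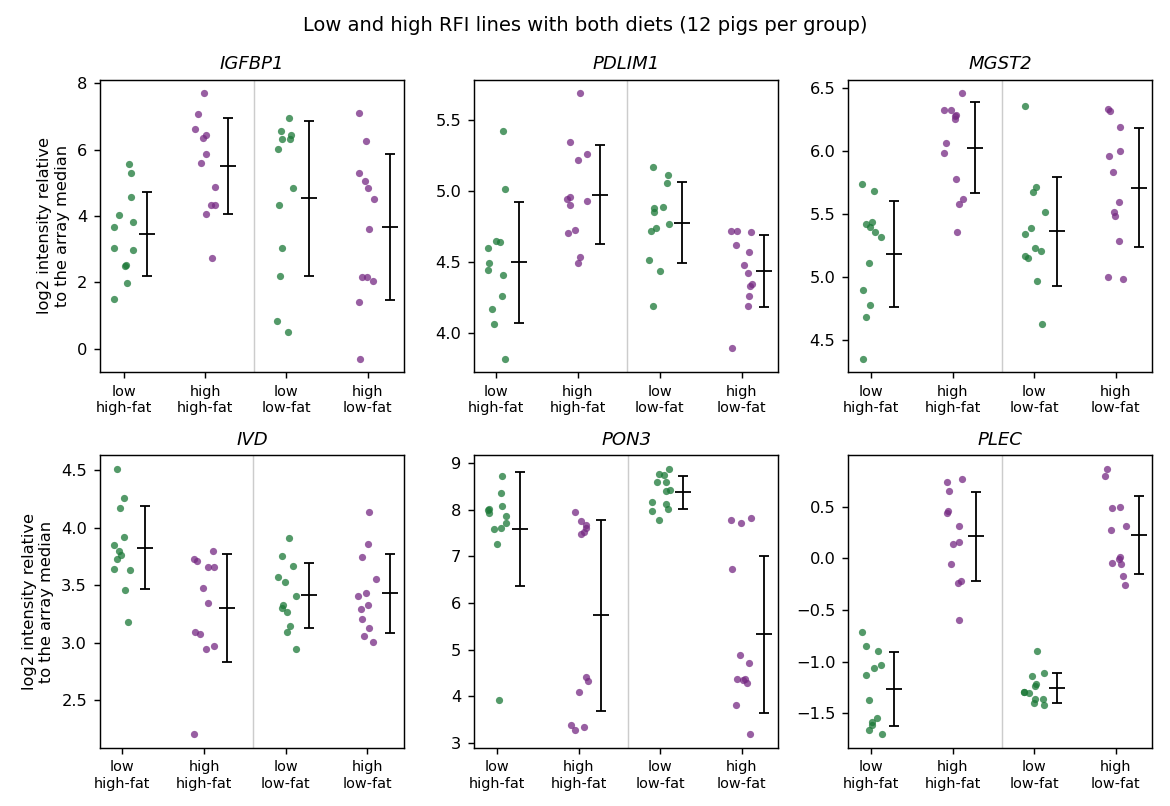
Log2 intensity relative to the array median (y axis) of 6 genes in the 4 groups of 12 pigs, low RFI in green and high RFI in purple, with the high-fat high-fiber diet on the left of each panel and the low-fat low-fiber diet on the right, 1 point per pig, with mean and SD. PLEC differs alike with both diets (log2 FC -1.48 and -1.48), while IGFBP1 (-2.05 and 0.85), PDLIM1 (-0.48 and 0.34) and IVD (0.52 and -0.02) do not read alike, and no difference between the diets passed the adjusted threshold.

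Some genes that met the cut-offs were neighbours on the chromosome, as given by the gene order of the reference assembly Sscrofa11.1, among the 9896 measured genes with a place in it. By their best probe, 6 runs of 3 or more neighbouring measured genes all met the cut-offs, and these were chosen after their values were seen. By any of their probes, 567 of the 10949 genes met the cut-offs. Whether the number of runs exceeds what this share would give was not tested. The longest run had 4 genes, SEPHS1 (log2 FC 0.82, P = 0.00301), PHYH (-0.53, P = 0.00258), OPTN (-0.41, P = 0.00843) and YME1L1, which did not move one way. Another held MCAT, the malonyl transferase of mitochondrial fatty acid synthesis, with a log2 FC of -0.70 (SE 0.10, adjusted P = 0.000756), TTLL1 (-0.30, P = 0.00368) and PACSIN2 (-0.36, P = 0.00349), all lower in low RFI pigs with both diets. A further run held UQCRB, a subunit of complex III, with a log2 FC of -0.57 (SE 0.12, adjusted P = 0.0195), MTERF3 (-0.37, P = 0.000899) and C4H8orf37. SERPINA11 (log2 FC 0.88, SE 0.13, adjusted P = 0.00105) lay in a run with SERPINA5 (-0.50, P = 0.00549), and PON1, PON3 and PON2 formed another. In 5 of the 6 runs the genes did not all move in one direction.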

How the data were processed

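Liver RNA of 48 pigs was hybridized with Cy3 to a custom porcine Agilent array, 1 array per pig, and the 24 arrays of the high-fat high-fiber diet were compared by line, as given in the titles. The deposited scanner output holds the intensity of each spot, background-subtracted by the scanner software (processed signal). Per the paper's methods, the authors filtered spots and took log2 values centred on the median in R, which the submitters' processing notes give as version 2.10.0, and the deposited table of log2 values covers 37379 probes. The build behind the probe design was not given in the sources used here.

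From the scanner output, 159 spots flagged as outliers on the 24 arrays were left out, no spot was saturated, and log2 processed signals were centred on the median of the tested probes of each array. A probe was tested when well above background on at least 12 of 24 arrays. The lines were compared with limma 3.58.1 in R 4.3.3 (lmFit and eBayes, no covariate), with Benjamini-Hochberg adjustment over all 43209 tested probes, and the same probes were used for the 24 low-fat low-fiber arrays and for the interaction on 48 arrays. Probes were named by RefSeq accession (10066), gene ID (1612) or the symbol in the scanner output (15741), and 32886 stayed unnamed. The scripts were tested on simulated data. Precision is limited by the 12 arrays per line. P sets the mean difference between the lines against the spread between pigs, and it takes the pigs of a line as independent.

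Named genes are the 12 largest rises and 12 largest falls among called probes with a symbol that were well above background on all 12 arrays of the higher line, up to 4 genes of each list past a test (or up to 2 that define the list), genes whose lines do not overlap, and the 5 genes of smallest interaction P. Some genes and sequences that the rule names are not reported here. List genes are given by their probe of highest mean intensity. The members and lists were chosen with earlier results of these data known. Alternatives were other centring (75th percentile, quantile), background (normexp with offset 50, median intensity without subtraction), filters, outlier spots kept, slide or scan day as a block, each scan day alone, an ANOVA, a model of all 48 arrays, the deposited log2 values, and the mean over a gene's probes.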

Additional observations from a re-analysis of the deposited data

How the results depend on the processing

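The number of probes called with the high-fat high-fiber diet was 279, and lay between 199 (ANOVA without moderated variances) and 331 (1 model of all 48 arrays) under the alternatives other than those named next. Without a filter on dim probes it was 168, of which 157 were among the 279. With scan day 1 alone it was 15 (12 shared) and with scan day 2 alone 8 (8 shared), each with 6 pigs per line. With the low-fat low-fiber diet, 280 probes became 5 with scan day 1 alone and 36 with scan day 2 alone. The difference of the line effect between the diets had 0 calls under every alternative run for it. Of 1202 recomputed log2 FC of 76 named probes, 4 changed sign. They were CD1D with scan day 1 alone (-0.03), CYP1A2 with the mean over its probes (0.03), and ALB with quantile normalization (-0.04) and scan day 2 alone (-0.06). For the 33 named probes with an adjusted P under 0.05, that threshold was missed by 28 and 30 with scan day 1 or 2 alone. It was missed by 6 with the ANOVA and by 6 without the filter on dim probes. With the single scan days left out, 21 of the 33 kept it under every alternative that gave a value, including the ANOVA and the unfiltered probes. Sizes of dim probes shrank with normexp, also for SPARCL1 (0.63), SLC35F3 (1.0) and GATA4 (-0.91). The mean over all probes gave 0.86 for RPL38, 0.67 for TRAF6 and -0.95 for IGFBP1. With the mean over probes, 33 of 47 lists kept their count past the cut-offs within 1.5 times. No paired analysis was possible because the titles give every sample the same replicate number.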
